A study of Mus musculus with 24 samples.

Results

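Tardbp, Tbk1, Optn, Sqstm1, Vcp, Ubqln2, Matr3, Pfn1 and Hnrnpa1 are mouse counterparts of human genes in which mutations are linked to amyotrophic lateral sclerosis (ALS), apart from Sod1. They were taken by gene symbol from the expression tables of cultured mouse glia, and all 9 of the 9 names were found among 24411 genes. The proteins fall into groups by role. TDP-43 (Tardbp), hnRNP A1 (Hnrnpa1) and matrin 3 (Matr3) bind RNA, and the kinase TBK1, the cargo receptors optineurin (Optn) and p62 (Sqstm1), the ATPase VCP and the shuttle protein ubiquilin 2 (Ubqln2) act in autophagy and ubiquitin-dependent turnover. Profilin 1 (Pfn1) binds actin monomers and feeds them to growing filaments.

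Bulk mRNA was sequenced from primary astrocytes and microglia of wild-type (WT) mice and of SOD1G93A mice, which carry a human SOD1 transgene with an ALS mutation. Per the study's methods, the transgene was crossed in house into C57BL/6J mice for several generations. Astrocytes were immunopanned by HepaCAM from cortices, after cells binding CD45, BSL I or O4 had been removed; the study's methods give P5 for WT pups and no separate age for SOD1G93A pups. Microglia were selected with Cd11b beads from whole brains of P7 to P10 mice, and both cell types grew without serum. Activated astrocytes of either genotype had received C1q (400 ng/ml), TNFα (30 ng/ml) and IL-1α (3 ng/ml), activated microglia lipopolysaccharide (LPS, 50 ng/ml), and quiescent cells PBS alone. How long the treatments lasted was not found in the labels or the methods. The values cover 21 libraries in 7 conditions of 3 libraries each. The 3 libraries of quiescent SOD1G93A microglia were not analysed here. The study refers to biological replicates, but the text used here does not say whether the libraries of a group came from separate animals or cultures, so p-values measure the spread between these libraries, which may be technical.

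On GRCm38, by GENCODE M21, Tbk1 lies at chr10:121546455-121586787, Optn lies at chr2:5020642-5064051, Sqstm1 lies at chr11:50199366-50210827 and Pfn1 at chr11:70651850-70654644, all on the minus strand. Tardbp (chr4:148612382-148627019) and Vcp (chr4:42979963-43000507) share a chromosome and the minus strand. Hnrnpa1 (chr15:103240432-103246692) and Ubqln2 (chrX:153498227-153501570) are on the plus strand.

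Whole reads recovered from the tables totalled 2016139 to 11570122 per library (median 5098168). Depth differed within groups. WT quiescent astrocytes held 2016139, 3637657 and 9258718 reads and SOD1G93A quiescent astrocytes 9526331, 7251063 and 3292225. A member had between 19 reads (Optn in SOD1G93A activated astrocytes 3) and 34046 reads (Sqstm1 in SOD1G93A LPS microglia 2) in a library. All 9 members passed the limit of a mean of 10 normalized counts in every comparison, so low counts removed none. Libraries of the same group differed by more than sampling noise, with chi-square values of 1.48 to 20.3 per degree of freedom between pairs, and each was kept as a separate sample. WT LPS microglia 1 stood apart from its group (13.96 and 12.8 against libraries 2 and 3, which gave 1.62 between them), as did SOD1G93A LPS microglia 3 (15.7 and 20.3, against 2.33 between libraries 1 and 2). In quiescent astrocytes WT library 3 (8.97 and 6.5, against 2.03) and SOD1G93A library 1 (6.47 and 9.87, against 2.79), the deepest of their groups, did too.

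The labelled cell types were checked against their markers. In CPM (reads scaled to the counted reads of the library), all 17 microglial markers were at 1 or more on average in WT quiescent microglia, where their sum was 15287, 15949 and 15056 in the 3 libraries, against 389, 479 and 570.1 in WT quiescent astrocytes. In SOD1G93A quiescent astrocytes it was 671, 662 and 505. It was 431, 597 and 408 in WT activated and 495, 362 and 398 in SOD1G93A activated ones. Each of these ranges overlaps that of WT quiescent astrocytes, and 2 of the 3 SOD1G93A quiescent libraries lie above it. All SOD1G93A activated sums lay below all SOD1G93A quiescent ones. By mean CPM, 17 of the 17 markers were lower in activated than in quiescent SOD1G93A astrocytes, without a test of single markers. In WT, 11 were higher and 6 lower. Sall1 was the most abundant of them in WT quiescent astrocytes (181 CPM) and Csf1r in WT quiescent microglia (2574 CPM). With LPS the same list summed to 5706, 5335 and 5345 CPM in WT and 5792, 5729 and 7512 CPM in SOD1G93A microglia. The 14 astrocyte markers summed to 6140.4, 6561 and 7625 CPM in WT quiescent astrocytes, led by Slc1a3, and to 197, 175 and 193 CPM in WT quiescent microglia, where Gjb6 was at 0. They summed to 6471, 5939 and 5261 CPM in SOD1G93A quiescent, 5369, 5475 and 5517 CPM in WT activated and 5510.3, 5453 and 5558 CPM in SOD1G93A activated astrocytes. The WT activated sums lay below all WT quiescent ones, and the 2 SOD1G93A groups overlapped. By mean CPM, 12 of the 14 were lower in activated than in quiescent astrocytes in WT and 12 in SOD1G93A, without a test of single markers. With LPS the 14 summed to 227, 172 and 258 CPM in WT and 203, 255 and 150 CPM in SOD1G93A microglia. Both ranges overlap that of WT quiescent microglia, and in WT 4 markers were higher and 10 lower on average. Slc1a2 was at 10.7, 45.5 and 38.6 CPM and Gja1 at 5.19, 30.0 and 34.0 CPM in WT quiescent, WT LPS and SOD1G93A LPS microglia. In WT quiescent, WT activated, SOD1G93A quiescent and SOD1G93A activated astrocytes, in this order, Gfap was at 474, 937, 201 and 726 CPM, Aldoc at 423, 109, 345 and 136 CPM and Hepacam at 542, 239, 491 and 246 CPM.

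Oligodendrocyte lineage markers summed to 3152, 3063 and 2973 CPM in WT quiescent and 1129, 1164 and 1103 CPM in WT activated astrocytes, with Olig1 most abundant at 1799 and 531 CPM and Mog at 0 in the quiescent group. In SOD1G93A astrocytes this sum was 3565, 3310.0 and 3345 CPM in quiescent and 1111, 1076 and 1139 CPM in activated libraries. By mean CPM, 4 of the 12 were higher and 8 lower in activated than in quiescent astrocytes, in WT and in SOD1G93A alike. In WT quiescent and activated astrocytes Olig2 was at 868 and 350 CPM, Pdgfra at 89.8 and 79.4 CPM and Cspg4 at 61.4 and 67.9 CPM. In microglia the list was at 1349, 1375 and 1389 CPM in WT quiescent, 144, 143 and 145 CPM in WT LPS and 185, 191 and 280.0 CPM in SOD1G93A LPS libraries, with Cspg4 most abundant (1229, 65.6 and 144 CPM). With LPS in WT, 4 of the 12 were higher and 8 lower on average. Neuronal markers summed to 965, 997 and 769.8 CPM in WT quiescent and 427, 472 and 472 CPM in WT activated astrocytes, and 927, 1013 and 1012 CPM and 409, 422 and 439.7 CPM in the SOD1G93A counterparts. Map2 was the most abundant, at 872, 384, 952 and 379 CPM in WT quiescent, WT activated, SOD1G93A quiescent and SOD1G93A activated astrocytes, and the lower sums come from it. Without Map2 the neuronal means summed to 39.2, 72.9, 31.1 and 44.1 CPM, with 9 of the 10 markers higher in activated WT and 7 of the 10 higher in activated SOD1G93A astrocytes. The endothelial list reached 139, 149 and 155 CPM in WT activated and 119, 117 and 112 CPM in SOD1G93A activated astrocytes (WT quiescent 10.9, 10.7 and 14.6 CPM), nearly all from Flt1 when activated, while Cdh5, Cldn5, Ly6c1 and Tie1 were at 0 in both activated groups. Pericyte and fibroblast markers summed to 60.02, 66.5 and 81.7 CPM in WT quiescent, 74.9, 84.2 and 67.1 CPM in WT activated, 55.3, 51.6 and 38.9 CPM in SOD1G93A quiescent and 55.4, 57.5 and 57.6 CPM in SOD1G93A activated astrocytes. These sums join genes with different patterns, with 5 of 9 higher and 3 lower on average in activated WT and 6 higher and 3 lower in activated SOD1G93A astrocytes. In the same order of groups as the sums, the pericyte genes were at 56.7, 25.4, 39.8 and 20.1 CPM for Acta2, 6.78, 9.42, 4.52 and 10.3 CPM for Pdgfrb and 1.00, 2.32, 0.987 and 2.78 CPM for Rgs5. The fibroblast genes were at 0.439, 21.5, 0.469 and 15.4 CPM for Lum, 0.548, 12.6, 0.197 and 5.93 CPM for Dcn, 1.05, 2.61, 0.679 and 1.07 CPM for Col1a1 and 2.64, 1.6, 1.85 and 1.08 CPM for Col1a2. Abcc9 and Kcnj8 were at 0.201 CPM or less in these groups. In microglia the endothelial list summed to 83.6, 94.9 and 94.1 CPM in WT quiescent and 51.2, 64.7 and 57.3 CPM in WT LPS libraries. In SOD1G93A LPS libraries it was at 55.3, 64.6 and 33.9 CPM. In this order of groups Flt1 was at 52.8, 4.03 and 4.64 CPM and Pecam1 at 0.979, 14.9 and 15.0 CPM. With LPS in WT, 2 of its genes were higher and 3 lower on average. The pericyte and fibroblast sums were 29.8, 26.3 and 23.8, then 35.3, 27.9 and 32.7, then 28.2, 32.3 and 21.8 CPM. The part of these markers in the differences below was not tested. In bulk RNA, fewer cells of a type and less RNA per cell cannot be told apart.

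Between genes, levels were set side by side per length, in RPKM (reads scaled to the gene's merged exon length and to the library's counted reads). Merged exons cover 2405 bases for Pfn1 and 3344 for Ubqln2, while their longest coding transcripts have 861 and 3344 bases. Levels of different genes therefore depend on this choice of length. In WT quiescent astrocytes the highest of the 9 was Pfn1 (258 ± 3.63, SD, n = 3), followed by Vcp (89.9 ± 17.6) and Sqstm1 (73.4 ± 11.6), and the lowest was Optn (3.09 ± 0.361). In WT LPS microglia Sqstm1 came first (937 ± 6.99) and Pfn1 next (519 ± 70.1), and Optn was again last (5.02 ± 0.715). Sqstm1 varied most between conditions, with means 14.4-fold apart, and Vcp least, 1.36-fold. For Sqstm1, 1 of the 6 neighbouring pairs of conditions in the order of levels had overlapping libraries, for Optn 6 of 6 and for Vcp 5 of 6. Reads of Hnrnpa1 have a reservation. A transcript named Gm10052, a processed pseudogene, is identical to Hnrnpa1 over 752 bases and held 81911 reads over the 21 libraries, against 10546 for Hnrnpa1. How the authors' counting split reads between them cannot be told from the tables, so the level of Hnrnpa1 is uncertain. The pseudogene Vcp-rs matches Vcp at 99.05% over 2421 bases and Gm28285 matches Matr3 at 100.0% over 1313 bases, but neither was among the 24411 genes. A further copy of Hnrnpa1, the processed pseudogene Gm5643 (98.79% over 745 bases), had 89 reads.

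**Figure D1:**
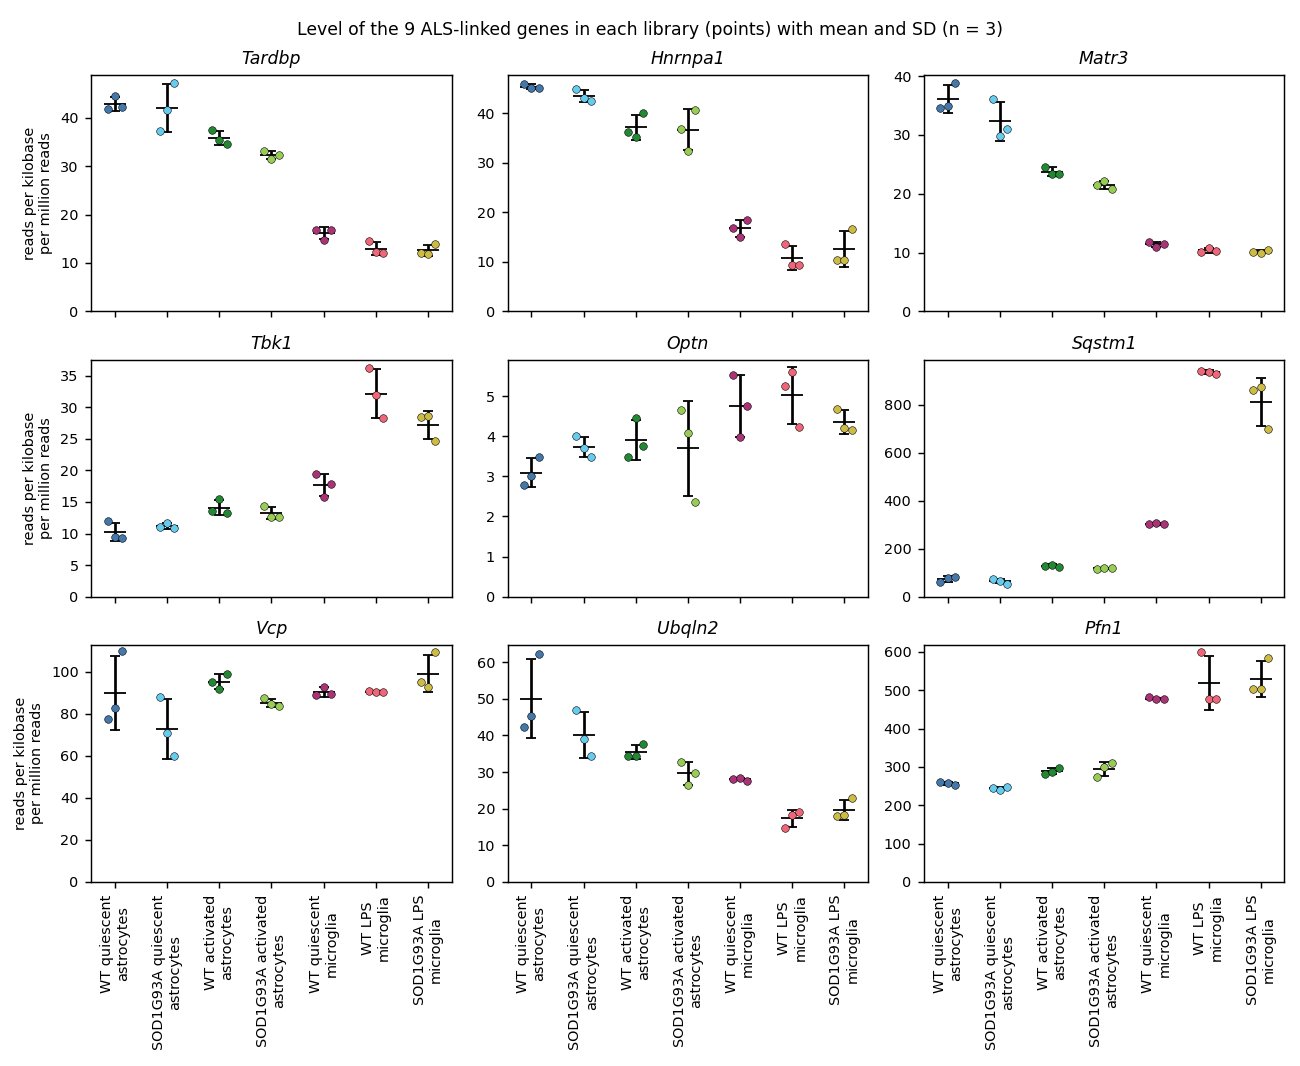
Level of each of the 9 genes in RPKM (y axis, from 0) in the 7 conditions (x axis); points are libraries and bars the mean ± SD of 3. Sqstm1 stood at 937 ± 6.99 in WT LPS microglia and 73.4 ± 11.6 in WT quiescent astrocytes.

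Tardbp, Hnrnpa1 and Matr3 were higher per length in all astrocyte conditions than in all microglial ones. In RPKM, Matr3 ran from WT quiescent astrocytes (36.1 ± 2.37) through SOD1G93A quiescent (32.3 ± 3.33), WT activated (23.7 ± 0.751) and SOD1G93A activated astrocytes (21.5 ± 0.739) to WT quiescent (11.4 ± 0.379), WT LPS (10.4 ± 0.368) and SOD1G93A LPS microglia (10.2 ± 0.247), and the quiescent astrocyte pair and the LPS pair overlapped. The RPKM level of Tbk1 ran from WT LPS (32.2 ± 3.91), SOD1G93A LPS (27.2 ± 2.23) and WT quiescent microglia (17.7 ± 1.78) to WT activated (14.1 ± 1.16), SOD1G93A activated (13.2 ± 0.923), SOD1G93A quiescent (11.2 ± 0.434) and WT quiescent astrocytes (10.2 ± 1.47). For Tbk1 the LPS pair, the activated pair and the quiescent astrocyte pair each overlapped. Optn stood at 5.02 ± 0.715 in WT LPS microglia, 4.76 ± 0.783 in WT quiescent microglia, 4.35 ± 0.29 in SOD1G93A LPS microglia, 3.9 ± 0.498 in WT activated astrocytes, 3.73 ± 0.26 in SOD1G93A quiescent astrocytes, 3.7 ± 1.19 in SOD1G93A activated astrocytes and 3.09 ± 0.361 in WT quiescent astrocytes RPKM, with every neighbour overlapping.

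The RPKM level of Tardbp was 42.9 ± 1.47 in WT quiescent astrocytes, 42.05 ± 4.95 in SOD1G93A quiescent astrocytes, 35.9 ± 1.46 in WT activated astrocytes, 32.3 ± 0.742 in SOD1G93A activated astrocytes, 16.1 ± 1.25 in WT quiescent microglia, 12.98 ± 1.42 in WT LPS microglia and 12.6 ± 1.1 in SOD1G93A LPS microglia. Neighbours that overlapped were WT quiescent astrocytes and SOD1G93A quiescent astrocytes, SOD1G93A quiescent astrocytes and WT activated astrocytes, WT LPS microglia and SOD1G93A LPS microglia. Hnrnpa1 stood at 45.4 ± 0.483 in WT quiescent astrocytes, 43.5 ± 1.29 in SOD1G93A quiescent astrocytes, 37.1 ± 2.51 in WT activated astrocytes, 36.7 ± 4.17 in SOD1G93A activated astrocytes, 16.7 ± 1.68 in WT quiescent microglia, 12.5 ± 3.65 in SOD1G93A LPS microglia and 10.8 ± 2.47 in WT LPS microglia RPKM. Overlapping neighbours were WT activated astrocytes and SOD1G93A activated astrocytes, WT quiescent microglia and SOD1G93A LPS microglia, SOD1G93A LPS microglia and WT LPS microglia. For Sqstm1 the RPKM levels were 937 ± 6.99 in WT LPS microglia, 812 ± 99.3 in SOD1G93A LPS microglia, 304 ± 3.79 in WT quiescent microglia, 128 ± 6.26 in WT activated astrocytes, 118 ± 1.72 in SOD1G93A activated astrocytes, 73.4 ± 11.6 in WT quiescent astrocytes and 64.9 ± 9.45 in SOD1G93A quiescent astrocytes. Its only overlapping neighbours were WT quiescent astrocytes and SOD1G93A quiescent astrocytes. Ubqln2 had RPKM levels of 50.02 ± 10.7 in WT quiescent astrocytes, 40.1 ± 6.31 in SOD1G93A quiescent astrocytes, 35.5 ± 1.9 in WT activated astrocytes, 29.6 ± 3.11 in SOD1G93A activated astrocytes, 28.1 ± 0.372 in WT quiescent microglia, 19.6 ± 2.79 in SOD1G93A LPS microglia and 17.4 ± 2.36 in WT LPS microglia. Here WT quiescent astrocytes and SOD1G93A quiescent astrocytes, SOD1G93A quiescent astrocytes and WT activated astrocytes, SOD1G93A activated astrocytes and WT quiescent microglia, SOD1G93A LPS microglia and WT LPS microglia overlapped. In RPKM, Vcp was at 98.98 ± 8.88 in SOD1G93A LPS microglia, 95.2 ± 3.5 in WT activated astrocytes, 90.4 ± 0.369 in WT LPS microglia, 90.2 ± 2.31 in WT quiescent microglia, 89.9 ± 17.6 in WT quiescent astrocytes, 85.03 ± 1.92 in SOD1G93A activated astrocytes and 72.8 ± 14.1 in SOD1G93A quiescent astrocytes. All its neighbours but WT activated astrocytes and WT LPS microglia overlapped. Pfn1 came to 529 ± 46.5 in SOD1G93A LPS microglia, 519 ± 70.1 in WT LPS microglia, 478 ± 2.33 in WT quiescent microglia, 294 ± 18.3 in SOD1G93A activated astrocytes, 289 ± 8.45 in WT activated astrocytes, 258 ± 3.63 in WT quiescent astrocytes and 244 ± 3.27 in SOD1G93A quiescent astrocytes RPKM. Its overlapping neighbours were SOD1G93A LPS microglia and WT LPS microglia, WT LPS microglia and WT quiescent microglia, SOD1G93A activated astrocytes and WT activated astrocytes.

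Quiescent microglia were compared with quiescent astrocytes of WT mice on reads put on one scale. Of 12064 genes tested by limma, 78.3% passed an adjusted p under 0.05, 38.5% higher and 39.9% lower in microglia, and 8 of the 9 members passed, 5 higher and 3 lower. Sqstm1 was at 5848, 6136 and 5893 normalized counts in the microglial libraries and 766, 983 and 1143 in the astrocyte libraries, with no overlap. Its difference in log2(normalized count + 1) was 2.65 ± 0.14 (SE; adjusted p = 2.3e-08, limma). Tbk1 (1.37 ± 0.12), Optn (1.18 ± 0.19), Pfn1 (1.48 ± 0.098) and Vcp (0.60 ± 0.15) were also higher in microglia, but the sign of Vcp turned under quantile normalization and its call was lost under library totals (0.87), adjusted p by limma in parentheses (range 5.1e-06 to 0.87). Matr3 (-1.08 ± 0.098), Hnrnpa1 (-0.86 ± 0.10) and Tardbp (-0.83 ± 0.092) were lower. Under library totals these values were 0.79 for Tbk1, 0.61 for Optn, 0.89 for Pfn1, 0.022 for Vcp, -1.66 for Matr3, -1.44 for Hnrnpa1 and -1.41 for Tardbp. Quantile normalization gave 0.73 for Pfn1, -1.64 for Matr3 and -1.37 for Tardbp. Ubqln2, at 542, 562 and 539 in microglia and 533, 586 and 848 in astrocytes, overlapped and did not pass (adjusted p = 0.19, limma). Its difference was -0.23, with -0.70 under quantile normalization, -0.81 under library totals and -0.36 without WT quiescent astrocytes 1. In RPKM, Ubqln2 was lower in all WT quiescent microglial libraries (27.7 to 28.4) than in all WT quiescent astrocyte ones (42.4 to 62.3). It was called under quantile normalization (8.3e-04), under library totals (2.4e-04) and without WT quiescent astrocytes 1 (0.033), by limma with adjusted p in parentheses (range 2.4e-04 to 0.74). Scaling to library totals moved the median of all genes by -0.58, and the share of called genes that were higher went from 49.1% to 30.1%.

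Activation of WT astrocytes by the 3 factors was compared with PBS. limma called 4722 of 12336 genes, or 38.3% (19.1% higher, 19.2% lower), and 6 of the 9 members: Tbk1 and Sqstm1 rose, and Tardbp, Hnrnpa1, Matr3 and Ubqln2 fell. At an adjusted p under 0.001 with a change over 2-fold, 11.5% of genes and none of the 9 members passed (limma), with 6 members by edgeR (40.4% of genes) and 5 by DESeq2 (34.0% of genes) at the first limit. At an unadjusted p under 0.05, 46.8% of genes and 7 members passed (limma). The members' median difference was 0.12, beside 0.014 over all genes tested.

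Among the RNA-binding members, Matr3 was at 1217, 1142 and 1174 normalized counts in activated and 1649, 1691 and 1948 in quiescent WT astrocytes. Every activated library was below every quiescent one. The difference was -0.58 ± 0.090 (SE), with an adjusted p of 3.8e-04 by limma (3.7e-08 to 0.0051 over the alternatives). Tardbp was at 1422, 1334 and 1339 in activated and 1533, 1659 and 1626 in quiescent libraries. These groups did not overlap, and Tardbp fell by 0.23 (adjusted p = 0.04, limma), with the range 0.0026 to 0.16 over the alternatives. The call was kept in 12 of the 19 alternatives and lost in 7, all by limma: with no filter on low values (0.0548), without the trend (0.088), with the replicate block (0.062), without WT quiescent 2 (0.15), WT activated 1 (0.079), WT activated 2 (0.16) and WT activated 3 (0.14). Hnrnpa1 was at 554, 537 and 625 in activated and 680.2, 679.7 and 702 in quiescent libraries. It fell by 0.27 (adjusted p = 0.033, limma), and the call was lost, with limma unless named, without the trend (0.077), by DESeq2 (0.062), without WT quiescent 2 (0.085), WT activated 1 (0.13) and WT activated 2 (0.16), adjusted p in parentheses (range 0.0044 to 0.16). Summed with Gm10052, Hnrnpa1 was at 4601 against 6029, a difference of -0.39 ± 0.092 (adjusted p = 0.0062, limma).

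Of the autophagy members, Sqstm1, whose product tethers ubiquitinated cargo to the autophagosome, was at 2102, 2171 and 2022 in activated and 957, 1215 and 1387 in quiescent WT astrocytes. All activated libraries were above all quiescent ones, and the quiescent libraries spread more widely. It rose by 0.84 ± 0.12, or 1.79-fold (adjusted p = 2.6e-04, limma). Tbk1, the kinase that phosphorylates optineurin and p62, was at 257, 291 and 258 in activated and 219, 177 and 179 in quiescent libraries. Its groups did not overlap and it rose by 0.49 ± 0.12 (adjusted p = 0.0064, limma). Both were called in 19 of 19 alternatives. Ubqln2 was at 561, 555 and 625 in activated and 666, 724 and 1029 in quiescent libraries. WT quiescent library 3 stood highest, and Ubqln2 fell by 0.45 (adjusted p = 0.029, limma; 1.5e-06 to 0.1 over the alternatives). The limma call of Ubqln2 was lost without the trend (0.09), without WT activated 1 (0.1), WT activated 2 (0.095) and WT activated 3 (0.0544), adjusted p in parentheses, and without WT quiescent 3 the difference was -0.26. Vcp was at 2247, 2148 and 2375 in activated and 1759, 1910.4 and 2635 in quiescent libraries. The groups overlapped through WT quiescent library 3, and Vcp did not pass (adjusted p = 0.51, limma), though without that library it did (difference 0.30, adjusted p = 0.0033, range 0.0033 to 0.97). Optn, at 63.6, 80.6 and 69.8 in activated and 48.9, 53.8 and 64.6 in quiescent libraries, overlapped and did not pass (adjusted p = 0.14, limma).

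Pfn1 was at 3289.9, 3339 and 3551 in activated and 2951, 2956 and 3018 in quiescent WT astrocytes. The groups did not overlap, but the difference of 0.19 ± 0.083 did not pass (adjusted p = 0.099, limma), while it did under quantile normalization (0.045), with the depth covariate (0.017) and without WT quiescent 3 (0.026), adjusted p by limma in parentheses (range 0.017 to 0.29).

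The same activation in SOD1G93A astrocytes was tested on reads put on one scale. limma called 43.1% of 12203 genes (21.6% higher, 21.5% lower) and 6 of the 9 members. Sqstm1, Tbk1 and Pfn1 rose, and Matr3, Tardbp and Ubqln2 fell. By mean CPM, 17 of the 17 microglial markers were also lower in activated than in quiescent SOD1G93A astrocytes, and their sums did not overlap. The part of these markers in the differences was not tested. Sqstm1 was at 1727, 1795 and 1787 in activated and 1070.0, 948 and 759 in quiescent libraries, a difference of 0.95 ± 0.11 (adjusted p = 3.8e-06, limma). Matr3 was at 969, 1015 and 949 against 1603, 1274 and 1307, a difference of -0.50 ± 0.10 (adjusted p = 6.9e-04, limma). Neither pair of groups overlapped, and both were called in 19 of 19 alternatives. Pfn1 was at 2933, 3230.2 and 3358 against 2589, 2431 and 2458, and it rose by 0.35 (adjusted p = 0.0086, limma; 6.4e-04 to 0.062 over the alternatives). Its call was lost without SOD1G93A quiescent 2 (0.062), SOD1G93A activated 2 (0.0508) and SOD1G93A activated 3 (0.059), adjusted p by limma in parentheses. Tbk1 was at 249, 223 and 224 against 189.5, 192 and 176 and rose by 0.31 (adjusted p = 0.027, limma; range 0.027 to 0.097). With limma unless named, it was not called under library totals (0.082), by DESeq2 (0.078), without SOD1G93A quiescent 2 (0.067), SOD1G93A quiescent 3 (0.068), SOD1G93A activated 1 (0.097) and SOD1G93A activated 2 (0.0502), adjusted p in parentheses. Neither Pfn1 nor Tbk1 overlapped between the groups. Tardbp was at 1146, 1106 and 1135 against 1271, 1364 and 1526 and fell by 0.29 (adjusted p = 0.018, limma; range 0.0019 to 0.079), without overlap. That limma call was lost without the trend (0.064), without SOD1G93A quiescent 2 (0.064), SOD1G93A quiescent 3 (0.06), SOD1G93A activated 2 (0.079) and SOD1G93A activated 3 (0.056), adjusted p in parentheses. Ubqln2 was at 485, 397 and 449 against 685, 549.9 and 476. Its groups overlapped through activated library 1, and it fell by 0.35 (adjusted p = 0.032, limma; range 0.0011 to 0.43). The call did not hold without the trend (0.12), with the depth covariate (0.43), without SOD1G93A quiescent 1 (0.11), SOD1G93A quiescent 2 (0.063), SOD1G93A activated 2 (0.16) and SOD1G93A activated 3 (0.07), adjusted p by limma in parentheses. Its difference was -0.15 with the depth covariate and -0.21 without SOD1G93A quiescent 1. Vcp stood at 1881, 1841 and 1825 against 1863, 1442 and 1204 and did not pass (adjusted p = 0.0511, limma; 1.6e-04 to 0.19 over the alternatives), but did with a pseudocount of 5 (0.0487), with at least 10 counts in every library (0.0465), with the replicate block (0.024), with the depth covariate (0.0014) and without SOD1G93A quiescent 1 (1.6e-04), adjusted p by limma in parentheses. Optn and Hnrnpa1 overlapped between the groups and did not pass, Hnrnpa1 apart from limma calls under quantile normalization (0.0475), under library totals (0.045) and summed with Gm10052 (0.0469), adjusted p in parentheses (range 0.045 to 0.58).

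Whether the response to activation differed between genotypes was tested as an interaction over the 12 astrocyte libraries. limma called 0.277% of 12269 genes (34) and none of the 9 members. At an unadjusted p under 0.05, 8.30% of genes and 0 members passed, and edgeR (0.269% of genes) and DESeq2 (0.562%) each called 0 members at an adjusted p under 0.05. The members' differences of responses (SOD1G93A minus WT) ran from -0.33 (Optn) to 0.20 (Vcp). With log2 of library reads as a covariate, Sqstm1 (0.45, adjusted p = 0.026, range 0.026 to 0.998) and Vcp (0.59, adjusted p = 0.009, range 0.009 to 0.99) were called by limma, with 8.80% of genes.

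LPS-treated WT microglia were compared with PBS-treated ones. limma called 6185 of 10866 genes, or 56.9% (28.6% higher, 28.3% lower), and 6 of the 9 members, with Sqstm1, Tbk1, Pfn1 and Vcp higher and Ubqln2 and Hnrnpa1 lower. At an adjusted p under 0.001 with a change over 2-fold, 20.8% of genes and 2 members, Sqstm1 and Tbk1, passed. The members' median difference was 0.22, beside 0.0048 over all genes.

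Sqstm1 was at 18873, 19731 and 18979 normalized counts in LPS and 5245, 5556 and 5310.0 in quiescent WT microglia. All LPS libraries lay far above all quiescent ones, and each group was tight. It rose by 1.84 ± 0.074, or 3.57-fold (adjusted p = 1.0e-08, limma), ranking 668 from the top of 10866 genes. Tbk1 was at 843, 784 and 675 in LPS and 391, 332 and 367 in quiescent libraries. Its groups did not overlap, and it rose by 1.07 ± 0.11, or 2.1-fold (adjusted p = 1.2e-05, limma). Both were called in 19 of 19 alternatives. Ubqln2 was at 293, 384 and 389 in LPS and 486, 509 and 486 in quiescent libraries. It did not overlap and fell by 0.48 (adjusted p = 0.0053, limma), also called in 19 of 19. Vcp was at 2628, 2740.0 and 2667 against 2216, 2417 and 2273 and rose by 0.22 (adjusted p = 0.028, limma), but its sign turned under quantile normalization (range 0.0028 to 0.968). The call was also lost, with limma unless named, under library totals (0.968), without the trend (0.076), by DESeq2 (0.074), with the replicate block (0.059), without WT quiescent 1 (0.11), WT quiescent 3 (0.11), WT LPS 2 (0.08) and WT LPS 3 (0.067), adjusted p in parentheses, and the difference was 0.0036 under library totals. Optn stood at 118, 132 and 96.4 against 107, 79.9 and 93.8, overlapped, and did not pass (adjusted p = 0.14, limma).

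Pfn1 was at 8601, 7204 and 7003 in LPS and 5964, 6158 and 6025 in quiescent WT microglia. The groups did not overlap and LPS library 1 was the highest. It rose by 0.32 ± 0.092 (adjusted p = 0.012, limma), a call lost under quantile normalization (0.085, adjusted p = 0.41) and under library totals (0.11, adjusted p = 0.35; range 0.0017 to 0.41). Hnrnpa1, at 256, 186 and 178 in LPS and 273, 255 and 305 in quiescent libraries, overlapped through LPS library 1. It fell by 0.44 (adjusted p = 0.027, limma; 1.2e-04 to 0.1 over the alternatives). That limma call was not kept without the trend (0.059), without WT quiescent 1 (0.067), WT quiescent 3 (0.1), WT LPS 2 (0.086) and WT LPS 3 (0.099), adjusted p in parentheses, and summed with Gm10052 the difference was -0.29 ± 0.074 (adjusted p = 0.0063, limma). Tardbp, at 680.0, 599 and 573 against 678, 614 and 688, and Matr3, at 607, 685 and 638 against 613, 597 and 611, overlapped between groups and did not pass, Tardbp apart from a limma call under library totals (0.023), adjusted p in parentheses (range 0.023 to 0.74). The sign of Matr3 turned under quantile normalization and under library totals, and in RPKM, which also rests on library totals, its LPS libraries lay below the quiescent ones. Without WT LPS library 1, which stands apart from its group, the differences were 1.85 for Sqstm1, 1.00 for Tbk1, 0.23 for Pfn1, 0.23 for Vcp, -0.35 for Ubqln2 and -0.60 for Hnrnpa1, all 6 again called by limma (adjusted p from 4.5e-13 to 0.0028). That fit called 62.6% of 10855 genes, beside 56.9% with all libraries. Scaling to library totals moved the median of all genes by -0.21 and the share of called genes that were higher from 50.3% to 33.8%.

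SOD1G93A LPS microglia were set against the same WT quiescent libraries, which mixes genotype with activation, and the comparison shares its controls with the preceding one. limma called 53.9% of 10921 genes and 5 of the 9 members. Side by side with the WT LPS values, Sqstm1 differed from WT quiescent microglia by 1.63 ± 0.11 (WT LPS 1.84 ± 0.074), Tbk1 by 0.84 ± 0.10 (1.07 ± 0.11), Pfn1 by 0.36 ± 0.073 (0.32 ± 0.092), Vcp by 0.35 ± 0.074 (0.22 ± 0.074) and Ubqln2 by -0.30 ± 0.093 (-0.48 ± 0.12). The limma call of Pfn1 was lost under quantile normalization (0.47) and under library totals (0.16), adjusted p in parentheses (range 8.1e-05 to 0.47), and that of Vcp under quantile normalization (0.29) and under library totals (0.18) (range 3.9e-04 to 0.29). For Ubqln2 it was lost without the trend (0.0517), without WT quiescent 1 (0.058), WT quiescent 2 (0.072), WT quiescent 3 (0.06), SOD1G93A LPS 1 (0.084) and SOD1G93A LPS 2 (0.079) (range 1.9e-04 to 0.084). Hnrnpa1, not called with all libraries, was called by limma without SOD1G93A LPS 3 (0.0012), adjusted p in parentheses (range 0.0012 to 0.6), and Tardbp under quantile normalization (0.013), under library totals (0.0093) and without SOD1G93A LPS 3 (0.035) (range 0.0093 to 0.44). The fit without SOD1G93A LPS 3 called 61.2% of 10938 genes and 7 members, beside 53.9% and 5 with all libraries. Quantile normalization and library totals gave 0.073 and 0.14 for Pfn1 and 0.11 and 0.13 for Vcp, and library totals -0.52 for Ubqln2. Without SOD1G93A LPS library 3, which stands apart from its group, the differences were 1.76 for Sqstm1, 0.93 for Tbk1, 0.31 for Pfn1, 0.30 for Vcp, -0.40 for Ubqln2, -0.44 for Hnrnpa1 and -0.18 for Tardbp. Under library totals the median of all genes moved by -0.22 and the share of called genes that were higher went from 51.6% to 31.7%.

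**Figure D2:**
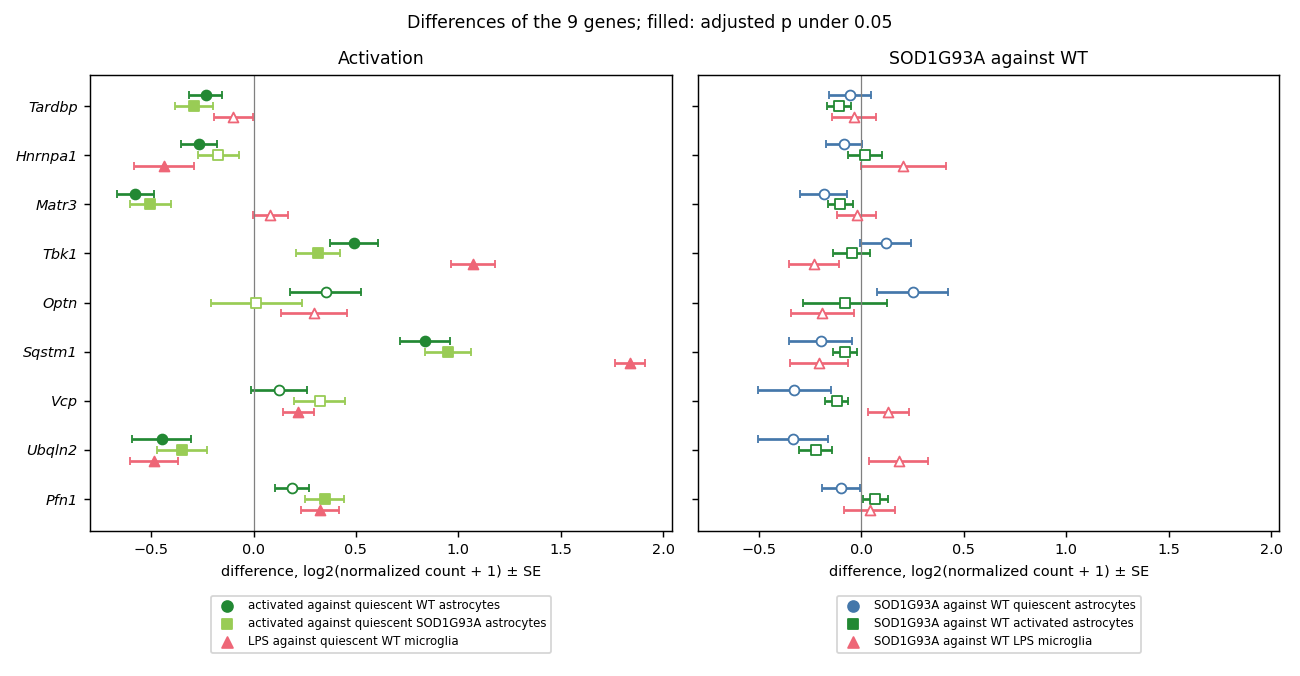
Difference in log2(normalized count + 1) with its SE (x axis) for each gene (y axis), for activation (left) and for SOD1G93A against WT (right); filled symbols passed an adjusted p under 0.05 by limma (n = 3 libraries a group). Sqstm1 in WT microglia, at 1.84, lies farthest from 0 and no symbol on the right is filled.

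Whether the response to LPS in WT microglia differed from the response to the 3 factors in WT astrocytes was tested as an interaction over 12 libraries, with different agents in the cell types. limma called 41.0% of 12334 genes, 20.1% of the genes tested with a positive value (microglia minus astrocytes), and 3 of the 9 members, each with a positive value. Sqstm1 and Tbk1 rose in both cell types, while Matr3 fell in astrocytes and did not pass in microglia. The signed difference of responses was 1.02 ± 0.17 for Sqstm1 (adjusted p = 2.4e-04), 0.68 ± 0.12 for Matr3 (adjusted p = 4.7e-04) and 0.61 ± 0.16 for Tbk1 (adjusted p = 0.0078), all by limma. Matr3 was called in 25 of 25 alternatives. Sqstm1 lost the call under quantile normalization (0.31, limma adjusted p = 0.087, range 1.9e-09 to 0.087), and Tbk1 under quantile normalization and library totals (0.30 and 0.39, adjusted p = 0.2 and 0.086, range 0.0043 to 0.2). Without WT LPS microglia 1, which stands apart from its group, the values were 1.03 for Sqstm1, 0.72 for Matr3 and 0.53 for Tbk1, all called by limma. That fit called 42.9% of genes, beside 41.0% with all libraries. Library totals moved the median of all genes by -0.21 here and the share of called genes with a positive value from 48.99% to 32.4%.

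The transgene was the subject of 3 comparisons. In quiescent astrocytes limma called 0.0570% of 12271 genes (7) between SOD1G93A and WT and none of the 9 members, and at an unadjusted p under 0.05 8.70% of genes and 0 members passed; edgeR (0.0570% of genes) and DESeq2 (0.440%) called 0 members. Vcp was at 2148, 1677 and 1415 normalized counts in SOD1G93A and 1854, 1990.2 and 2732 in WT libraries. The libraries with the most reads, WT 3 and SOD1G93A 1, were highest in their groups, and the groups overlapped. Ubqln2 was at 789, 639.8 and 560.1 in SOD1G93A and 702, 755 and 1066 in WT libraries, with the same libraries highest. Sqstm1 was at 1234, 1103 and 892 and 1009, 1266 and 1437. In both genotypes 4 of the 9 members (Optn, Sqstm1, Ubqln2 and Vcp) followed the order of depth, beside 14.2% of the genes tested. With log2 of library reads as a covariate, limma called 2359 genes (19.2%) and 4 members, namely Vcp (-0.50, adjusted p = 2.5e-05), Ubqln2 (-0.50, 5.7e-05), Sqstm1 (-0.34, 0.0013) and Matr3 (-0.25, 0.02), all lower in SOD1G93A; in the other 18 alternatives none of the 4 was called, with adjusted p up to 0.998.

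In activated astrocytes limma called 7.27% of 12098 genes between genotypes and none of the 9 members; 20.4% of genes and 2 members passed an unadjusted p under 0.05, and edgeR (7.78% of genes) and DESeq2 (4.81%) called 0 members. Ubqln2 was at 469, 382 and 434 in SOD1G93A and 483, 479 and 536 in WT libraries. All SOD1G93A libraries were below all WT libraries. The difference was -0.22 ± 0.081 (adjusted p = 0.11, limma), and it was called under library totals (0.04999), with the replicate block (0.043) and without SOD1G93A activated 1 (0.027), adjusted p by limma in parentheses (range 0.027 to 0.45). Vcp was at 1818, 1772 and 1761 and 1935, 1854 and 2036, also without overlap (adjusted p = 0.24, limma), and was called under quantile normalization (0.032), adjusted p by limma in parentheses (range 0.032 to 0.72). The 9 differences ran from -0.22 to 0.067. Library totals took the share of called genes that were higher from 63.4% to 45.6%. In LPS microglia limma called 0.00936% of 10679 genes (1) and none of the 9 members, 8.71% of genes and 0 members passed an unadjusted p under 0.05, and edgeR (0.00936% of genes) and DESeq2 (0.112%) called 0 members. Tbk1 was at 688, 687 and 575 in SOD1G93A and 837, 778 and 675 in WT libraries and overlapped. Sqstm1 was at 17910.2, 18046 and 13949 and 18741, 19572 and 18981. SOD1G93A library 3 stood lowest for Sqstm1, and the groups did not overlap (difference -0.21 ± 0.14, adjusted p = 0.64, limma). Without SOD1G93A LPS 3 that difference was -0.087 and without WT LPS 1 -0.22, and no member was called by limma with either of these left out. In the same order, these fits called 0.0188% and 0.0187% of genes.

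Related genes were taken as lists. All list counts are by limma at an adjusted p under 0.05, beside 38.3% of all genes in WT astrocytes and 56.9% in WT microglia, and medians of all genes of 0.014 and 0.0048. Of RNA-binding relatives, 1 of 24 rose and 12 fell (median -0.26) with activation of WT astrocytes, and 7 of 24 rose and 4 fell (median 0.061) with LPS in WT microglia. Among called genes of the list whose groups do not overlap, Hnrnpa2b1, an hnRNP close to hnRNP A1, showed the largest fall in astrocytes (-0.55 ± 0.087, limma adjusted p = 4.4e-04) and Atxn2 the largest rise (0.34 ± 0.098, adjusted p = 0.018). In microglia these were G3bp1 (-0.31 ± 0.080, limma adjusted p = 0.007) and Taf15 (0.72 ± 0.094, adjusted p = 8.6e-05). Of autophagy machinery, 9 of 30 rose and 0 fell (median 0.20) in astrocytes, with Gabarapl1 first (0.71 ± 0.077, limma adjusted p = 2.6e-05). In microglia 12 of 30 rose and 4 fell (median 0.21), with the cargo receptor Tax1bp1 highest (0.91 ± 0.083, limma adjusted p = 5.4e-06) and the initiating kinase Ulk2 lowest (-1.19 ± 0.13, adjusted p = 2.3e-05).

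Of TBK1 partners, 7 of 20 rose and 2 fell (median 0.16) in astrocytes, led by the ubiquitin-editing enzyme Tnfaip3 (2.86 ± 0.32, limma adjusted p = 3.2e-05), with Trim27 lowest (-0.36 ± 0.092, adjusted p = 0.0092). In microglia 11 of 20 rose and 3 fell (median 0.26). Ikbke, the kinase closest to TBK1 and among those counted as risen, was at 535, 467 and 454 normalized counts with LPS and 9.64, 0 and 10.6 without. Its mean without LPS lies under the limit of 10, so Ikbke entered the test through the LPS group alone, and with 1 library at 0 the size of its log2 difference depends on the pseudocount (5.45 to 7.22 over the alternatives). It is the only called list gene in these WT comparisons with a group mean under 10. Tmem173, which encodes STING, fell furthest of the list in microglia (-1.82 ± 0.11, limma adjusted p = 2.7e-07). Of VCP cofactors and ubiquilin relatives, 8 of 25 rose and 0 fell (median 0.15) in astrocytes and 14 of 25 rose and 2 fell (median 0.28) in microglia. Vimp, a partner of VCP at the endoplasmic reticulum, rose furthest in both (0.65 ± 0.11, limma adjusted p = 9.0e-04 and 0.78 ± 0.091, adjusted p = 3.9e-05), and Ddi2 fell furthest in microglia (-1.02 ± 0.13, adjusted p = 6.8e-05). Of actin monomer regulators, 4 of 25 rose and 4 fell (median -0.0032) in astrocytes, from Cfl2 (0.80 ± 0.10, limma adjusted p = 8.1e-05) to Diap3 (-1.44 ± 0.15, adjusted p = 1.7e-05). In microglia 5 of 24 rose and 8 fell (median -0.030), from Vasp (1.38 ± 0.074, limma adjusted p = 7.9e-08) to Fmnl1 (-2.25 ± 0.084, adjusted p = 5.6e-09).

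Sqstm1 is a known target of the antioxidant factor NRF2. Of the NRF2 pathway list, 15 of 18 rose and 0 fell (median 0.92) in astrocytes and 11 of 18 rose and 3 fell (median 0.52) in microglia. Slc7a11, the cystine transporter subunit, rose furthest in both (4.37 ± 0.15, limma adjusted p = 5.7e-09 and 3.86 ± 0.20, adjusted p = 6.7e-08), and Osgin1 fell furthest in microglia (-0.79 ± 0.16, adjusted p = 0.0015). Of further ALS genes, 3 of 26 rose and 5 fell (median -0.028) in astrocytes, from Cyld (0.38 ± 0.13, limma adjusted p = 0.0457) to Ccnf (-1.68 ± 0.11, adjusted p = 7.7e-07). In microglia 4 of 24 rose and 8 fell (median -0.095), from Spg11 (1.20 ± 0.16, limma adjusted p = 9.4e-05) to Ang (-2.77 ± 0.23, adjusted p = 3.0e-06). Tia1, Hnrnpa2b1, Atxn2, Ubqln4 and Cyld are among the genes that stand in more than one list.

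Of the 24 differences given for genes named from the lists, Ikbke apart, 22 were called in all of their alternatives. These genes were picked as the largest called changes in the same data, so this count is no separate support for them. In astrocytes the call of Atxn2 was lost with no trend (0.058) or without WT quiescent 2 (0.071), WT activated 1 (0.083) or WT activated 3 (0.063) (range 2.4e-04 to 0.083), and that of Cyld with no filter on low values (0.06), quantile normalization (0.066), library totals (0.0532), no trend (0.0513), edgeR (0.0546), DESeq2 (0.17), the replicate block (0.06) or without WT quiescent 1 (0.069), WT quiescent 2 (0.14), WT activated 1 (0.18), WT activated 2 (0.078) or WT activated 3 (0.11) (range 0.01 to 0.18), adjusted p by limma or the tool named. List counts by limma, or the tool named, moved by over 1.5 times as follows, with 1 choice changed at a time. Among RNA-binding relatives in astrocytes, 0 rose with no trend or without WT quiescent 2, WT activated 1 or WT activated 3, 2 rose without WT quiescent 3, 5 fell without WT quiescent 2, WT activated 2 or WT activated 3, and 6 fell without WT activated 1. In microglia 3 rose with quantile normalization or library totals, 2 fell without WT quiescent 1, WT quiescent 2, WT quiescent 3 or WT LPS 3, and 8 fell with quantile normalization or library totals. Among autophagy machinery in astrocytes, 5 rose without WT activated 2, 16 rose with the depth covariate, and 2 fell with the depth covariate. In microglia 4 rose with library totals, and 8 fell with library totals. Among TBK1 partners in astrocytes, 1 fell with no trend or without WT quiescent 2, WT activated 1 or WT activated 2. In microglia 6 rose with library totals, and 6 fell with library totals. Among VCP cofactors and ubiquilin relatives in astrocytes, 3 rose without WT activated 1, 5 rose without WT activated 2, 1 fell with the depth covariate or without WT quiescent 1 or WT quiescent 3, and 2 fell with quantile normalization or library totals. In microglia 8 rose with library totals, 1 fell without WT quiescent 1 or WT quiescent 3, and 5 fell with library totals. Among actin monomer regulators in astrocytes, 8 rose without WT quiescent 3, and 7 fell with the depth covariate. In microglia 3 rose with library totals. Among NRF2 pathway genes in microglia, 5 fell with library totals. Among further ALS genes in astrocytes, 0 rose with no trend or without WT quiescent 2, WT activated 1 or WT activated 3, 1 rose with library totals, DESeq2 or without WT activated 2, 6 rose with the depth covariate or without WT quiescent 3, and 8 fell with the depth covariate. In microglia 7 rose without WT LPS 1, and 5 fell without WT quiescent 1 or WT quiescent 3.

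For each member the genes most like it were those with the highest Pearson r over the log2(normalized count + 1) values of the 21 libraries, among 12380 genes. The libraries share cell type and condition, so r describes mainly the pattern across the 7 conditions. Sqstm1 was most like Rnf19b (0.997) and Grina (0.996), Tbk1 like Phf23 (0.995) and Slc38a7 (0.99), and Pfn1 like Atp6v0c (0.995) and Tpm3 (0.995). Tardbp was most like Srsf10 (0.98) and Ralgps1 (0.98), Hnrnpa1 like Rcn2 (0.97) and Trub1 (0.97), and Pcm1 (0.97) was among those most like Matr3. Vcp was most like Pabpc1 (0.99) and Psmd2 (0.98), Ubqln2 like Thrap3 (0.95) and Syncrip (0.93), and Optn like Tmem159 (0.95) and Snx20 (0.95).

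Promoters of the members were read from RefSeq (GRCm38.p6), 300 bases from 250 before to 50 after each gene's start. Those of 7 of the 9 members were searched, without Matr3 and Ubqln2. Both strands were searched for NF-kB, AP-1 (TGANTCA), the antioxidant response element (TGACNNNGC), the interferon-stimulated response element (GAAANNGAAA) and the CLEAR core of lysosomal genes (TCACGTG). Of 32851 promoters, 4.5% held the NF-kB motif, 7.81% AP-1, 12.4% the antioxidant, 3.44% the interferon and 3.77% the CLEAR motif. At least 1 of the 5 motifs was in 5 of the 7 members' promoters and in 28.01% of all promoters. These were NF-kB in Tardbp and Sqstm1, CLEAR in Tbk1, the antioxidant element in Vcp and AP-1 in Hnrnpa1, and no matches of different motifs overlapped. Sqstm1 and Tbk1 are shown because they rose in every activation comparison. Both are on the minus strand, at chr11:50210771-50211070 and chr10:121586745-121587044, with the NF-kB match of Sqstm1 and the CLEAR match of Tbk1 in capitals. A match describes letters in the window and is no evidence of binding.
Sqstm1: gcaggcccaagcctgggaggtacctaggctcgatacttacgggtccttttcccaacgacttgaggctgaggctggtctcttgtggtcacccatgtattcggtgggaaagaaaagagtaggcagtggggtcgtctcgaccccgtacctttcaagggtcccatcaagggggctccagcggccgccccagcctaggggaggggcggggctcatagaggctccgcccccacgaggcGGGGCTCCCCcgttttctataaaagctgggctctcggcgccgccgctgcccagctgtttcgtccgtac
Tbk1: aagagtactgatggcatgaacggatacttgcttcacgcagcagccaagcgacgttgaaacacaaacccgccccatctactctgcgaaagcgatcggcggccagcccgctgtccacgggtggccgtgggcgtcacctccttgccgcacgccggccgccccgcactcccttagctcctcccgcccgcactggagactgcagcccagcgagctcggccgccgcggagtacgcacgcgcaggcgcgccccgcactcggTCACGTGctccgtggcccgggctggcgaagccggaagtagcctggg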

How the data were processed

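Per the submitters' processing notes and the study's methods, STAR 2.7.3a was the aligner (build mm10), RSEM the counter and DESeq2 the source of size factors. The gene annotation is not given in the sources used here. The deposited signal in each of 6 tables is a normalized count per gene and library. Dividing a column by its smallest positive value gave whole reads for 100% of values (within 0.01). The authors' own comparison columns hold mean counts, fold changes, standard errors, statistics and p-values, and were not used. Tables were normalized separately, so each was tested alone, and comparisons across tables used the recovered reads with median-of-ratios scaling. limma 3.58.1 in R 4.3.3 (eBayes with a trend) was run on log2(normalized count + 1) for genes with a mean of at least 10, with Benjamini-Hochberg adjustment over all genes tested, and called at an adjusted p under 0.05. edgeR 4.0.16 and DESeq2 1.42.0 on the recovered reads, other pseudocounts (0.5 and 5), filters and scalings, a replicate block, a depth covariate and leaving out each library were alternatives; summing Hnrnpa1 with Gm10052 was added after seeing the data. In the order of the 10 comparisons (genotype in quiescent astrocytes, activation of WT astrocytes, genotype in activated astrocytes, LPS in WT microglia, genotype in LPS microglia, SOD1G93A LPS against WT quiescent microglia, activation of SOD1G93A astrocytes, genotype by activation, microglia against astrocytes, activation by cell type), edgeR called 7, 4983, 941, 6318, 1, 6086, 5319, 33, 9602 and 5099 genes and DESeq2 54, 4196, 582, 5617, 12, 5270, 4577, 69, 9147 and 4936. Merged exon lengths came from GENCODE M21. Named genes are the 9 members; for each pathway list and each activation comparison of WT cells, the called gene with the largest rise and that with the largest fall among genes whose groups do not overlap; and the 2 genes closest to each member by Pearson r, of which one is not reported here. Motifs were chosen by name, and the letters searched were set after seeing the data. The members and the 7 pathway and 6 marker lists were chosen with earlier results of these data known. Symbols of 8 listed genes were matched through RefSeq synonyms. The limma, edgeR and DESeq2 fits of activation of WT astrocytes and of activation by cell type were also run on simulated counts.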

Additional observations from a re-analysis of the deposited data

Results flagged for a closer look

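The response to activation in WT cells differed between microglia and astrocytes for 3 of the 9 members, as tested by the interaction, beside 41.0% of all genes tested. Under quantile normalization 1 of the 9 and 41.3% of genes were called, and under library totals 2 and 43.0%. On the log2 scale the signed difference, microglia minus astrocytes, was 1.02 for Sqstm1 (0.31 under quantile normalization), 0.61 for Tbk1 (0.30 under quantile normalization and 0.39 under library totals) and 0.68 for Matr3. In normalized counts Matr3 stood lower in all activated WT astrocyte libraries than in all quiescent ones, while WT microglia with and without LPS overlapped; in RPKM the LPS libraries of WT microglia lay below the quiescent ones. The agents differ between the cell types (LPS against IL-1α, TNFα and C1q), so cell type and agent cannot be told apart. Groups of 3 libraries were not searched for single outlying values.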

How the results depend on the processing

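Over 90 differences (9 genes in 10 comparisons) and 1809 recomputed values, 1650 kept direction and side of the threshold, 65 lost the call, 30 gained it and 64 changed sign, 2 of them from a call. The causes were not tested, except that a stricter limit leaves fewer calls by construction. In what follows, percentages are of all genes tested. With a covariate for log2 reads, limma called 4 of the 9 members and 2359 genes (19.2%) for genotype in quiescent astrocytes. For genotype by activation it called 2 members and 1080 genes (8.80%). With limma without a trend, 3 members and 4330 genes (35.1%) were called for activation of WT astrocytes. With the limit of adjusted p under 0.001 and over 2-fold, 0 members and 1424 genes (11.5%) passed for activation of WT astrocytes. For LPS in WT microglia 2 members and 2263 genes (20.8%) passed. For SOD1G93A LPS against WT quiescent microglia it was 1 and 1718 (15.7%), and for activation of SOD1G93A astrocytes 0 and 1604 (13.1%). For microglia against astrocytes it was 5 and 5702 (47.3%), and for activation by cell type 1 and 1871 (15.2%). With quantile normalization, 1 member and 833 genes (6.89%) were called for genotype in activated astrocytes. For activation by cell type it was 1 member and 5098 genes (41.3%). With library totals, 1 member and 879 genes (7.27%) were called for genotype in activated astrocytes. Signs changed under a covariate for log2 reads: Vcp (-0.0071) for activation of WT astrocytes, Tbk1 (0.068), Optn (0.77), Pfn1 (-0.031), Hnrnpa1 (-0.23) for genotype in activated astrocytes, Optn (0.069) for genotype by activation, Optn (0.068), Ubqln2 (0.038) for activation by cell type. Signs changed under edgeR: Optn (0.016), Hnrnpa1 (-0.0005) for genotype in activated astrocytes, Ubqln2 (0.0031) for activation by cell type. Signs changed under DESeq2: Optn (0.0036) for genotype in activated astrocytes, Ubqln2 (0.033) for activation by cell type. Signs changed under quantile normalization: Pfn1 (-0.032), Hnrnpa1 (-0.0072) for genotype in activated astrocytes, Vcp (-0.051), Matr3 (-0.090) for LPS in WT microglia, Pfn1 (-0.021) for genotype in LPS microglia, Matr3 (-0.11) for SOD1G93A LPS against WT quiescent microglia, Sqstm1 (-0.0043) for genotype by activation, Vcp (-0.069) for microglia against astrocytes, Vcp (-0.18), Pfn1 (-0.12) for activation by cell type. Signs changed under library totals: Hnrnpa1 (-0.023) for genotype in activated astrocytes, Matr3 (-0.13) for LPS in WT microglia, Optn (-0.12), Matr3 (-0.16) for SOD1G93A LPS against WT quiescent microglia, Optn (-0.066) for activation of SOD1G93A astrocytes, Tardbp (-0.057), Vcp (-0.096), Pfn1 (-0.056) for activation by cell type. Signs changed under Hnrnpa1 summed with Gm10052: Hnrnpa1 (0.12) for activation by cell type. With each library dropped in turn, 0 to 1 members were called for genotype in activated astrocytes (391 to 1168 genes in all, 3.24% to 9.66%). For activation of SOD1G93A astrocytes 2 to 6 members were called (4204 to 5311 genes in all, 34.5% to 43.5%). For activation of WT astrocytes 3 to 8 members were called (3608 to 5488 genes in all, 29.3% to 44.4%). Dropping each library in turn gave ranges through 0 for Hnrnpa1 (-0.0063 to 0.37, genotype in LPS microglia), Hnrnpa1 (-0.064 to 0.10, genotype in activated astrocytes), Matr3 (-0.066 to 0.019, genotype in LPS microglia), Optn (-0.0034 to 0.20, SOD1G93A LPS against WT quiescent microglia), Optn (-0.27 to 0.20, genotype in activated astrocytes), Optn (-0.17 to 0.30, activation of SOD1G93A astrocytes), Optn (-0.16 to 0.085, activation by cell type), Pfn1 (-0.016 to 0.13, genotype in LPS microglia), Sqstm1 (-0.020 to 0.26, genotype by activation), Tardbp (-0.088 to 0.035, genotype in LPS microglia), Tardbp (-0.14 to 0.010, genotype in quiescent astrocytes), Tardbp (-0.11 to 0.018, genotype by activation), Tbk1 (-0.10 to 0.012, genotype in activated astrocytes), Ubqln2 (-0.22 to 0.12, activation by cell type), Ubqln2 (-0.082 to 0.25, genotype by activation), Vcp (-0.070 to 0.25, activation by cell type). Total gene counts moved over 1.5 times: genotype in quiescent astrocytes (7 called) gave 3 with no filter beyond a mean above 0, 4 with library totals, 0 with limma without a trend, 54 with DESeq2, 0 with the replicate block, 2359 with a covariate for log2 reads. In turn, genotype in activated astrocytes (879 called) gave 222 with limma without a trend, 582 with DESeq2, 157 with a covariate for log2 reads. In turn, genotype in LPS microglia (1 called) gave 2 with no filter beyond a mean above 0, 0 with limma without a trend, 12 with DESeq2, 2 with the replicate block, 2 with a covariate for log2 reads. In turn, genotype by activation (34 called) gave 19 with no filter beyond a mean above 0, 21 with library totals, 15 with limma without a trend, 69 with DESeq2, 1080 with a covariate for log2 reads. At the limit of adjusted p under 0.001 and over 2-fold, total counts were 0 against 7 (genotype in quiescent astrocytes), 1424 against 4722 (activation of WT astrocytes), 78 against 879 (genotype in activated astrocytes), 2263 against 6185 (LPS in WT microglia), 0 against 1 (genotype in LPS microglia), 1718 against 5883 (SOD1G93A LPS against WT quiescent microglia), 1604 against 5262 (activation of SOD1G93A astrocytes), 0 against 34 (genotype by activation), 5702 against 9448 (microglia against astrocytes), 1871 against 5052 (activation by cell type). Without 1 library, totals ran 0 to 2 (genotype in LPS microglia), 1 to 6 (genotype in quiescent astrocytes), 13 to 68 (genotype by activation). Libraries share only a replicate number: same-numbered libraries correlated at -0.44 to 0.13 over the deviations from their group means, and in 3 of 20 pairs of groups, all in activation by cell type, every library matched its own number best; in no pair of groups were all 3 correlations over 0.1. With the replicate block, members called went from 0 to 1 for genotype in activated astrocytes (10.3% of genes, 7.27% without the block), from 6 to 5 for activation of WT astrocytes (38.3%, 38.3% without), from 6 to 5 for LPS in WT microglia (54.9%, 56.9% without) and from 6 to 7 for activation of SOD1G93A astrocytes (43.6%, 43.1% without). Adding Gm10052 reads to Hnrnpa1 was chosen after seeing the data. Depth limits Optn most, at 19 reads in SOD1G93A activated astrocytes 3, and groups of 3 limit every comparison.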

Other observations

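The pseudogene Gm10052, identical to part of Hnrnpa1, held more reads than Hnrnpa1 itself. In WT quiescent astrocytes it was at 5176, 5373 and 5475 normalized counts, against 680.2, 679.7 and 702 for Hnrnpa1. With activation Gm10052 stood at 3853, 3958 and 4275, below every quiescent library (difference -0.41 ± 0.090, adjusted p = 0.0042, limma). The mouse Sod1 gene on the scale of all 21 libraries was at 1133, 1092 and 1023 in WT and 1076, 1107 and 1144 in SOD1G93A quiescent astrocytes, which overlap. Sod1 is listed under its mouse symbol, and the human transgene was not analysed here.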
